A study of Chlamydomonas reinhardtii with 9 samples.

Results

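In Chlamydomonas reinhardtii, a unicellular green alga, 51 of 17737 counted gene loci (0.288%) stepped up in transcript level at each of 2 doses of methylmercury. RNA was sequenced from wild type cells of strain CPCC11 after 2 h of exposure in artificial freshwater, in 3 groups of 3 replicates: controls without added mercury, cells given 0.05 nM methylmercury (MeHg) and cells given 0.5 nM MeHg. A locus belonged to the set when its mean level in the controls was at least 0.5 CPM, a read count divided by library size after scaling by the trimmed mean of M values (TMM), when its mean at 0.05 nM was at least 1.3 times the control mean, when its mean at 0.5 nM was more than 1.5 times the mean at 0.05 nM, and when every 0.5 nM library lay above every 0.05 nM library. The members were thus chosen by their CPM values in all 9 libraries, so the levels and ratios below describe the members and were not tested. The members are given by identifier, since neither the files nor the RefSeq table of this alga pair identifiers with gene names or products.

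Methylmercury is an organic mercury compound with a strong affinity for the thiols of cysteine, glutathione and proteins. Algae take it up from water, and it passes from them into aquatic food webs, which is why short exposures at low concentrations are studied in phytoplankton. Transcripts can answer a toxicant in a graded way, with a higher level at each higher dose, or in a saturating way, with one change that a higher dose does not add to. The set described here was chosen for the graded pattern, and nothing in its choice says what its products do.

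The second step was the demanding condition. The control minimum was met by 14387 loci (81.1%), and 4372 loci (24.6%) also met the first ratio. Only 83 loci met the second ratio as well, and 51 of these had no overlap between the doses. Without 1 library the same conditions, then over fewer libraries, were met by 91 loci when 0.5 nM replicate 1 was left out, 134 without 0.5 nM replicate 2, 95 without 0.05 nM replicate 1 and 109 without 0.05 nM replicate 3, and by 54 to 62 without any one of the other 5. Of the 51 members, 18 met them with each of the 9 libraries left out in turn. Without 0.5 nM replicate 3 the 58 loci included 36 of the 51, and without 0.05 nM replicate 2 the 54 loci included 39. Without any 1 of the controls the loci included 46 or 47 of the 51. The TMM scaling was redone each time. Scaling by library totals alone gave 96 loci, 46 of them among the 51.

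Loci just inside and just outside the minimum ratios had nearly the same values. For the second ratio, Cre07.g353200 lay just inside at 1.501, with means of 1.46, 2.45 and 3.67 CPM in control, 0.05 nM and 0.5 nM cells, and Cre04.g229450 followed at 1.502. Just outside were Cre11.g479900 at 1.498, with means of 27.0, 43.0 and 64.4 CPM, and Cre02.g109200 at 1.497, with means of 14.01, 56.4 and 84.4 CPM. For the first ratio, Cre12.g557850 lay just inside at 1.309 and Cre10.g464750 at 1.342, while Cre12.g518772 lay just outside at 1.297 and Cre16.g690250 at 1.295. The members and the loci outside differed in these ratios only in the third decimal for the second step, far less than the spread between libraries.

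**Figure D1:**
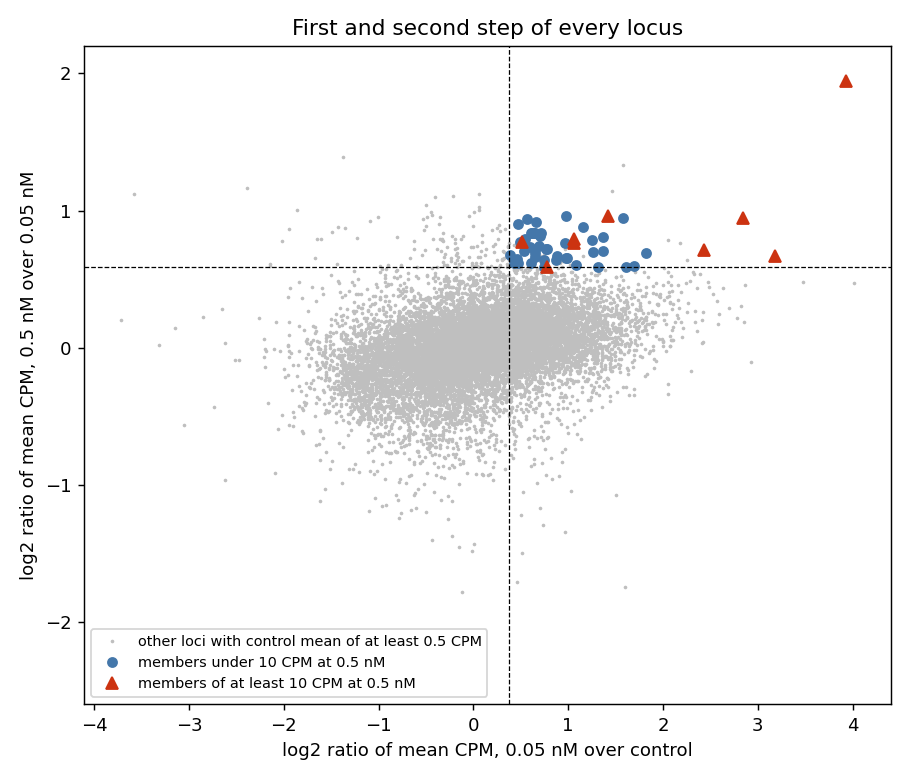
Each point is a locus with a control mean of at least 0.5 CPM. The x axis is the log2 ratio of mean CPM at 0.05 nM over control and the y axis the log2 ratio at 0.5 nM over 0.05 nM. Dashed lines mark the minimum ratios of 1.3 and 1.5. The members (blue circles and red triangles) fill the upper right corner by choice, and Cre03.g162800 lies alone at the top right, with ratios of 15.2 and 3.84.

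Most members were at the low end of the levels measured. Of the 809 loci with control means of 0.5 to 1 CPM, 26 (3.21%) were members, against 14 of 1228 loci (1.14%) at 1 to 2 CPM, 5 of 2320 (0.216%) at 2 to 5 CPM, 4 of 2086 (0.192%) at 5 to 10 CPM and 2 of 6119 (0.0327%) at 10 to 100 CPM. None of the 1825 loci with control means of at least 100 CPM was a member. The median over the members, taken for each group on its own, was 0.979 CPM in the controls, 1.97 CPM at 0.05 nM and 3.33 CPM at 0.5 nM. A gap in level separated 9 members with means of 14.6 to 342.2 CPM at 0.5 nM from 42 with 1.13 to 7.86 CPM, and this split at 10 CPM was made after the values were seen. CPM does not correct for transcript length, so it orders the members by reads and not by number of transcripts.

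The most read member was Cre17.g708750, on chromosome 17. It had 66.3, 64.6 and 65.9 CPM in the 3 controls, 158, 164 and 206 CPM at 0.05 nM and 297, 331 and 399 CPM at 0.5 nM. Its groups were widely separated and its controls lay close together. Means were 65.6 ± 0.937, 175.8 ± 26.0 and 342.2 ± 51.8 CPM (SD, n = 3 each), a first ratio of 2.68 and a second of 1.95, which was 1.79 without 0.5 nM replicate 3.

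Cre03.g162800, on chromosome 3, had the steepest rise of the set. Its 3 controls held 0.934, 1.13 and 1.08 CPM, the 0.05 nM libraries 14.4, 14.2 and 19.0 CPM and the 0.5 nM libraries 27.4 to 126 CPM. It was thus nearly silent without mercury, with 18, 15 and 15 reads in the controls, against 284, 270 and 342 reads at 0.05 nM and 693, 539 and 1903 reads at 0.5 nM. The mean of 61.1 ± 56.1 CPM at 0.5 nM (SD, n = 3) rests largely on replicate 3, which stood more than 4 times above the other 2. The ratio of 0.5 nM to 0.05 nM was 3.84 over all libraries and 1.81 without that library, and the ratio to control was 58.4 over all libraries. On the log2 scale the fitted change against control was 5.87 with all libraries and 4.77 without 0.5 nM replicate 3. This was the one member with a second ratio above 2.

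On chromosome 4, Cre04.g222800 and Cre04.g223300 made most of their rise at the lower dose. Cre04.g222800 had 6.48, 8.71 and 6.47 CPM in the controls, 57.4, 62.3 and 77.1 CPM at 0.05 nM and 80.8, 90.5 and 142 CPM at 0.5 nM. The ratio was 9.09 for its first step and 1.59 for its second, so that 82.6% of its rise on the log2 scale was present at 0.05 nM, the highest share in the set. Cre04.g223300 had 8.20, 11.6 and 7.97 CPM in the controls, 58.9, 61.8 and 79.1 CPM at 0.05 nM and 84.2, 86.1 and 214 CPM at 0.5 nM. Its ratios were 7.18 and 1.93, with 75.1% of the log2 rise at 0.05 nM. In both, 0.5 nM replicate 3 stood above the other 2 libraries of its dose, and without it the second ratios were 1.31 and 1.28, under the minimum of 1.5. The fitted log2 change of Cre04.g223300 at 0.5 nM against control was 3.79 with all libraries and 3.19 without that library.

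Cre01.g009400, on chromosome 1, had the same shape. It had 5.97, 6.01 and 4.81 CPM in the controls, 31.0, 24.9 and 35.0 CPM at 0.05 nM and 41.8, 39.8 and 67.2 CPM at 0.5 nM. The first ratio was 5.42 and the second 1.64, or 1.34 without 0.5 nM replicate 3.

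The other 4 members above 10 CPM had smaller first steps. Cre09.g405750 had 14.7, 12.9 and 14.5 CPM in the controls, 18.7, 18.5 and 22.9 CPM at 0.05 nM and 26.2, 28.4 and 47.8 CPM at 0.5 nM. It was the one of the 9 whose second ratio (1.70) exceeded its first (1.43). Cre12.g560800 had 7.37, 8.26 and 7.33 CPM in the controls, 12.8, 12.1 and 14.4 CPM at 0.05 nM and 17.6, 14.8 and 26.8 CPM at 0.5 nM. Cre09.g413300 had 5.14, 4.88 and 4.597 CPM in the controls, 10.3, 8.80 and 11.4 CPM at 0.05 nM and 15.1, 13.6 and 23.0 CPM at 0.5 nM. The doses were separated least in Cre12.g560800, by 14.4 CPM in the highest 0.05 nM library and 14.8 CPM in the lowest 0.5 nM library. Cre12.g535250 had 4.82, 4.28 and 3.02 CPM in the controls, 8.23, 7.64 and 9.47 CPM at 0.05 nM and 14.2, 11.997 and 17.7 CPM at 0.5 nM. Its 0.5 nM libraries spread less, and its second ratio was 1.73 over all libraries and 1.55 without replicate 3.

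**Figure D2:**
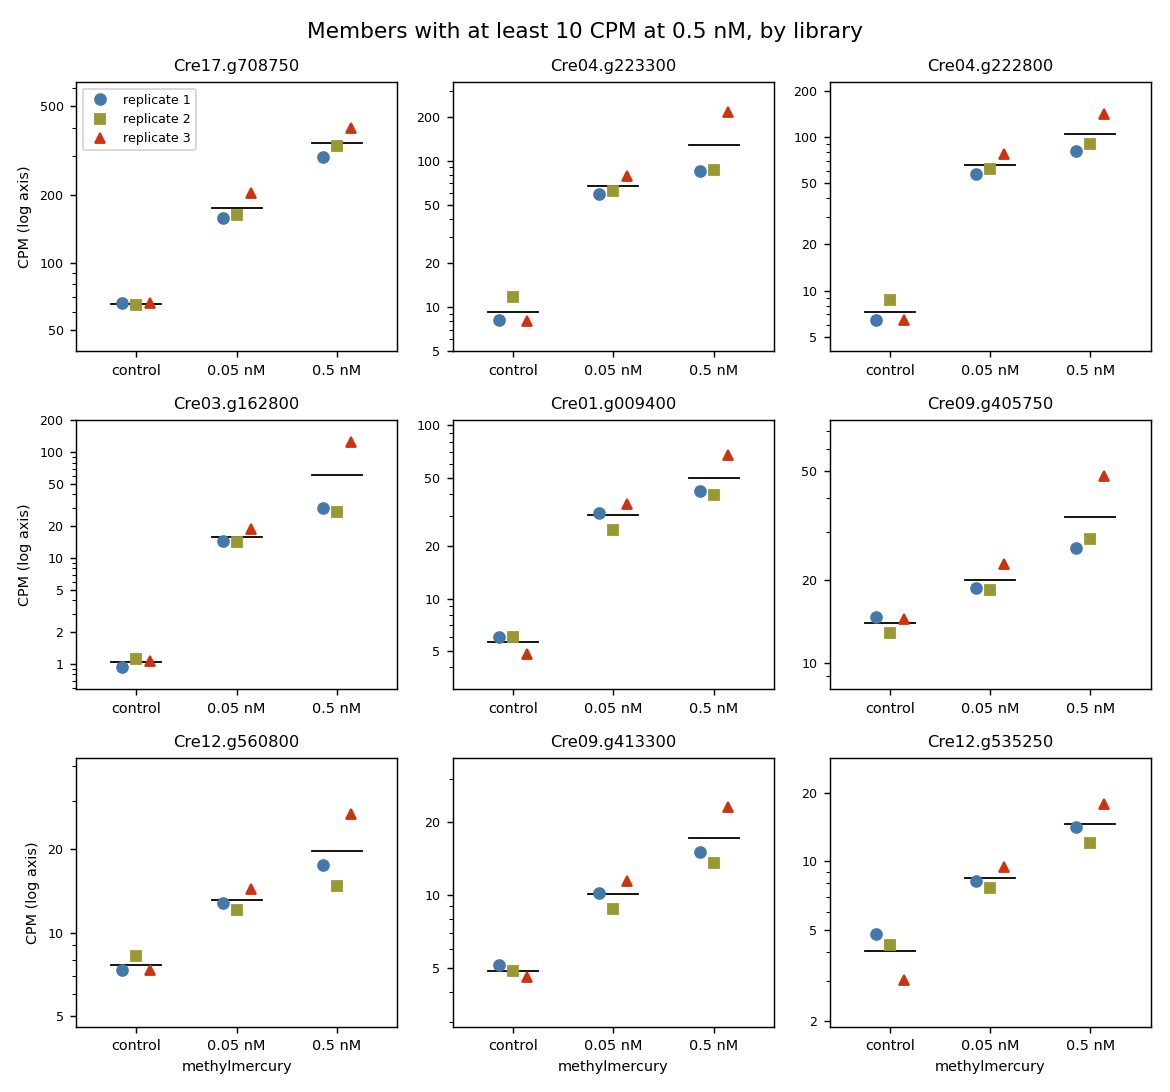
Levels of the 9 members with at least 10 CPM at 0.5 nM, by library. The x axis is the group, the y axis CPM on a log scale that differs between panels, the symbols the replicates and the black bars group means. In every panel the highest library at 0.05 nM and at 0.5 nM is replicate 3, and in Cre03.g162800 it reaches 126 CPM where the lowest library of its dose has 27.4 CPM.

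Replicate 3 was the highest library of both doses in all 9 of these members, and in the controls it was the highest in 0 of 9. Among the 42 members under 10 CPM it was the highest at 0.5 nM in 24 and at 0.05 nM in 19. Over all 14778 loci with enough reads for a fit, it was the highest at 0.5 nM in 28.2% and at 0.05 nM in 29.7%. At 0.5 nM replicate 1 was the highest in 17 of the 51 members and replicate 2 in 1, beside 35.8% and 36.0% of all tested loci. A high value in 1 library of that dose helps a locus meet the second ratio. The 0.5 nM replicate 3 library had the fewest assigned reads of the 9, 15138888, and multiply placed alignments came to 23.0% of its assigned reads, against 22.5% and 20.8% in the other 2 libraries of that dose. The part of depth or of any handling of that library in these values was not tested. Without 0.5 nM replicate 3 the second ratio stayed above 1.5 in 35 of the 51 members, which were 3 of the 9 (Cre17.g708750, Cre03.g162800 and Cre12.g535250) and 32 of the 42. The ratio over the 51 then ran from 1.14 to 1.95 with a median of 1.56, against 1.501 to 3.84 with a median of 1.65 over all libraries.

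The 42 lower members were read from few counts. Their counts per library ran from 4 to 78 with a median of 13 in the controls, from 10 to 101 with a median of 33 at 0.05 nM and from 16 to 210 with a median of 56.5 at 0.5 nM. Cre10.g464750, the lowest of all at 0.5 nM, had 15, 4 and 8 reads in the controls, 16, 14 and 12 at 0.05 nM and 31, 17 and 18 at 0.5 nM. Its summed reads were 27 in the controls (exact Poisson 95% interval 17.8 to 39.3) and 42 at 0.05 nM (30.3 to 56.8). At 0.5 nM they were 66 (51.0 to 84.0). The intervals cover counting error only. The sums are raw reads without scaling for library size, so an overlap between groups is not a comparison of CPM. The intervals of neighbouring doses overlapped. Cre01.g012100 had about the same control level, with 23 summed reads (14.6 to 34.5), but 74 at 0.05 nM (58.1 to 92.9) and 132 at 0.5 nM (110.4 to 156.5), and none of its intervals overlapped.

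Among these 42 the highest ratio to control belonged to Cre03.g186700. Its levels were 1.40, 0.525 and 0.862 CPM in the controls, 3.25, 2.06 and 3.01 CPM at 0.05 nM and 5.06, 4.12 and 6.81 CPM at 0.5 nM, a ratio of 5.74 at 0.5 nM over control. Cre03.g197200 followed with 0.830, 0.901 and 0.575 CPM in the controls, 2.74, 2.85 and 2.56 CPM at 0.05 nM and 4.85, 3.71 and 4.57 CPM at 0.5 nM, a ratio of 5.69. Both had a larger first ratio (2.98 and 3.54) than second (1.92 and 1.61), and in neither did any group overlap another.

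Cre12.g543100 had 2.33, 0.375 and 0.503 CPM in the controls, 3.45, 2.95 and 3.95 CPM at 0.05 nM and 5.89, 4.83 and 4.96 CPM at 0.5 nM. Its control values rest on 45, 5 and 7 reads, and control replicate 1 set its ratio to control: the fitted log2 change was 2.15 at 0.5 nM and 1.54 at 0.05 nM with all libraries, and 3.54 and 2.93 without that control. Cre04.g229450 had 0.726, 0.826 and 0.287 CPM in the controls, 1.37, 1.95 and 2.28 CPM at 0.05 nM and 2.38, 2.80 and 3.24 CPM at 0.5 nM. Its 0.5 nM values began just above the highest 0.05 nM value.

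Cre12.g544450 showed the clearest separation of the doses. It had 1.56, 1.88 and 2.01 CPM in the controls, 3.81, 2.95 and 3.95 CPM at 0.05 nM and 6.19, 6.56 and 8.07 CPM at 0.5 nM, with nearly equal ratios of 1.97 and 1.94. Its lowest 0.5 nM library stood 1.57 times above its highest 0.05 nM library, the widest such gap in the set. At the other end Cre12.g489350 had a gap of 1.001, and the median gap was 1.17. Cre12.g498750 differed from the 9 most read members in its replicates, with 4.05, 3.45 and 3.45 CPM in the controls, 4.83, 4.59 and 5.62 CPM at 0.05 nM and 9.09, 7.93 and 6.55 CPM at 0.5 nM, where replicate 3 was the lowest of its dose.

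**Figure D3:**
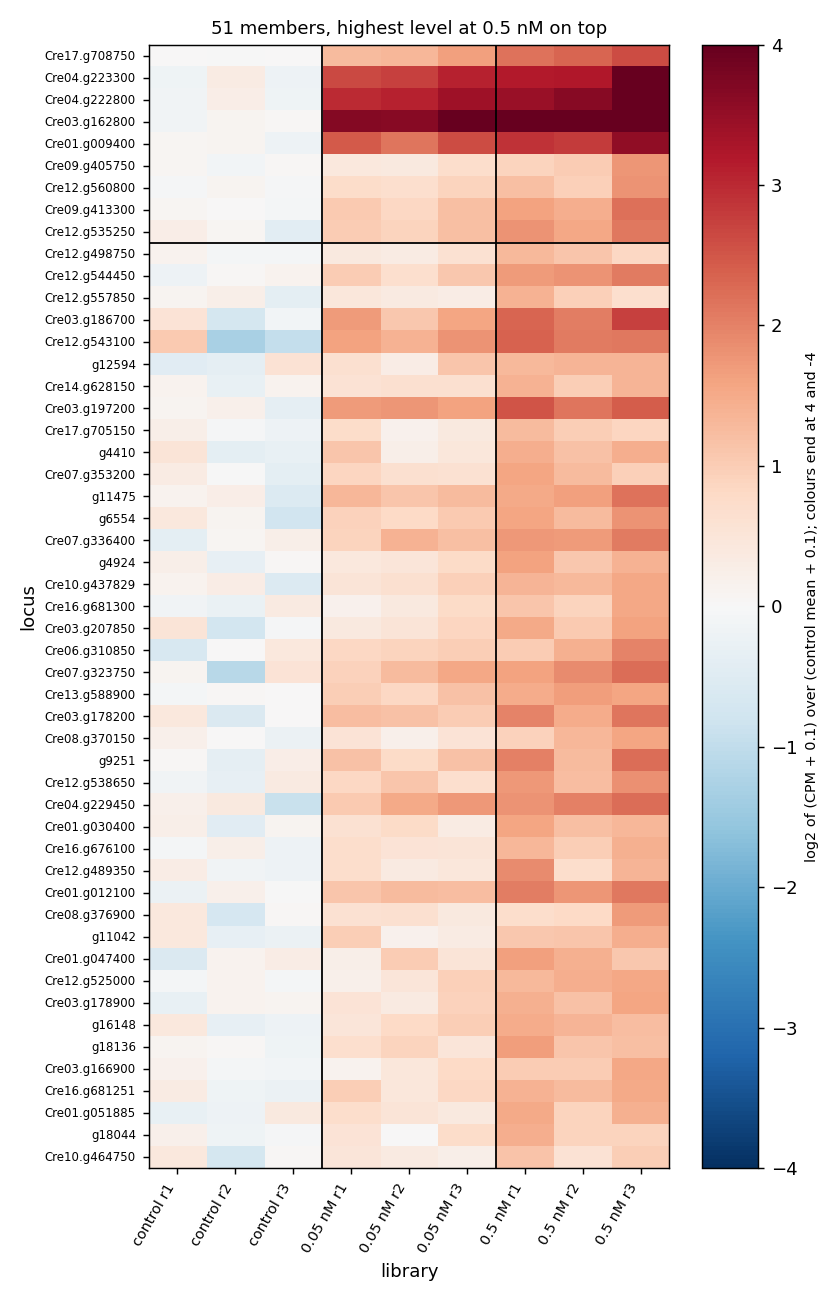
All 51 members (rows, ordered by mean level at 0.5 nM) in the 9 libraries (columns, by group). Colour gives the log2 ratio of CPM + 0.1 to the control mean + 0.1, with colours that end at 4 in either direction, and the horizontal line divides the 9 members of at least 10 CPM from the 42 below. The upper rows darken from the 0.05 nM to the 0.5 nM block and again in the last column, 0.5 nM r3, which was the highest at its dose in all 9.

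The 2 steps had similar median ratios over the members. The first ratio had a median of 1.71 and ran from 1.31 to 15.2, and the second had a median of 1.65 and ran from 1.501 to 3.84. The median share of the log2 rise already present at 0.05 nM was 53.9%, between 34.4% in Cre08.g370150 and 82.6% in Cre04.g222800. The first step exceeded the second on the log2 scale in 8 of the 9 members of at least 10 CPM and in 21 of the 42 below. Taken per library as the median log2 ratio to the control mean over the 51, the set stood at 0.02 ± 0.11 in control libraries (SD), 0.85 ± 0.11 in 0.05 nM libraries and 1.51 ± 0.15 in 0.5 nM libraries (n = 3 each), and no group overlapped another. The choice of the members fixes that order. It also sets the least size of each step, at ratios of 1.3 and 1.5, so nothing is read from the sizes of the steps beside each other.

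The conditions did not ask for separation of the 0.05 nM libraries from the controls, although a ratio of at least 1.3 favours it. Every 0.05 nM library lay above every control in 40 of the 51 members, 9 of 9 above 10 CPM and 31 of 42 below, beside 32.1% of all tested loci. Every 0.5 nM library lay above every control in 51 of 51, beside 33.5%, and above every 0.05 nM library in all members by choice, beside 8.37%. The ratios and the separation of the doses favour the counts against the controls too. The tested loci beside them met no such condition, so nothing is read from these counts.

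In a single fit over all libraries (edgeR's quasi-likelihood test, Benjamini-Hochberg adjusted p under 0.05 over 14778 loci) all 51 members had enough reads to enter. Higher levels at 0.5 nM than in the controls were called for 51 of 51 members, where 31.6% of all loci were called higher and 28.7% lower. At 0.05 nM against control 31 members were called higher, where 27.2% of all loci were called higher and 25% lower. Cre09.g405750, with a log2 change of 0.50 ± 0.21 (SE), was the one of the 9 most read members not called at 0.05 nM. Nothing is read from these counts, because the ratios that chose the members are the same contrasts.

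Between the doses the fit called few loci. At 0.5 nM against 0.05 nM it called 2 loci higher (0.0135%) and 121 lower (0.819%), and both higher loci were members, Cre17.g708750 with a log2 change of 0.97 ± 0.13 and Cre12.g544450 with 0.95 ± 0.17 (SE). With the replicate number as a block, 287 loci (1.94%) were called higher, 33 of them members, and DESeq2 called 47 loci higher, 5 of them members. Leaving out control replicate 1 gave 20 higher and 363 lower loci, and leaving out 0.5 nM replicate 2 gave 9 higher and 191 lower. Leaving out control replicate 2 or 3, 0.5 nM replicate 1 or 3, or any 0.05 nM replicate gave 0 higher and 0 lower in edgeR, with 1254 to 2020 loci at an unadjusted p under 0.05. The fitted second step of the members had a median of 0.73 on the log2 scale and ran from 0.57 to 1.94, against a median of 0.01 over all tested loci. The members were chosen by this same difference, which fixes its direction and its least size, so nothing is read from these counts or medians either.

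The more abundant members also varied more between the 0.5 nM libraries than the tested loci of at least 2 CPM. Among the 11 members with control means of at least 2 CPM the median coefficient of variation was 12.1% for control libraries, 12.9% for those at 0.05 nM and 29.5% for those at 0.5 nM. Over the 12350 tested loci of at least 2 CPM it was 12.1%, 8.75% and 11.2%. These loci were not matched to the 11 on level. Control means of 10 to 100 CPM were found in 6119 loci and 2 members. Those of at least 100 CPM were found in 1825 loci and 0 members. Among the 40 members below 2 CPM it was 26.9%, 16.7% and 19.7%, close to the 25.5%, 18.1% and 19.6% of the 1992 tested loci at 0.5 to 2 CPM. These medians are descriptions, since a large value in 1 library of the higher dose helps a locus meet the second ratio.

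The RefSeq table placed 38 of the 51 members on chromosomes. Chromosome 12 held 9 of them (23.7%), beside 11.7% of all placed loci that met the control minimum. Chromosome 3 held 6 (15.8%, beside 9.29%), chromosome 4 held 3 (7.89%, beside 2.597%), and chromosome 2 held 0, beside 8.80%. The 38 had 76 flanking places in the table, 65 with an identifier in the files, and 0 of these were members. The other 13 members were not in the table, so their neighbours were not looked at. Of 61 flanking loci tested, 25 (41.0%) were called higher at 0.5 nM against control, beside 31.6% of all loci, and 20 (32.8%) at 0.05 nM against control, beside 27.2%. Called lower were 15 (24.6%) at 0.5 nM, beside 28.7% of all loci, and 12 (19.7%) at 0.05 nM, beside 25%. At 0.5 nM against 0.05 nM edgeR called 0 of the 61 higher and 1 lower. The median log2 change of the flanking loci was 0.14 at 0.5 nM and 0.21 at 0.05 nM, against 0.07 and 0.05 over all tested loci.

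Of all pairs of placed members only Cre04.g222800 and Cre04.g223300 lay within 10 places of each other, 10 places apart on chromosome 4. The loci around them were looked at after the members were known. Of the 9 other loci in this stretch with values, 5 rose at 0.5 nM against control and 1 fell. Over all tested loci 31.6% were called higher in this comparison and 28.7% lower. Next to Cre04.g222800, Cre04.g222750 had 23.4, 34.9 and 27.7 CPM in the controls, 107, 128 and 150 CPM at 0.05 nM and 111, 124 and 292 CPM at 0.5 nM. It rose by 2.62 ± 0.37 on the log2 scale at 0.5 nM (SE; edgeR adjusted p = 0.000266), or by 2.03 without 0.5 nM replicate 3, again the highest library. It met neither the second ratio nor the separation of the doses.

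On both sides of Cre04.g223300 the flanking loci rose. Cre04.g223250 averaged 0.180 ± 0.0955 CPM in the controls, 1.16 ± 0.447 CPM at 0.05 nM and 2.12 ± 0.679 CPM at 0.5 nM (SD, n = 3 each). This was a log2 change of 3.55 ± 0.48 at 0.5 nM (SE; edgeR adjusted p = 6.51e-05), with a control level under the minimum of the set. Cre04.g223350 averaged 9.99 ± 1.95 CPM in the controls, 28.4 ± 3.40 CPM at 0.05 nM and 31.1 ± 4.91 CPM at 0.5 nM. It rose by 1.63 ± 0.17 at 0.5 nM (SE; edgeR adjusted p = 7.75e-06), almost all of it at the lower dose.

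Between the members the response was mixed. Cre04.g223100 averaged 240.0 ± 60.9 CPM at 0.5 nM against 135 ± 27.3 CPM in the controls and rose by 0.83 ± 0.20 (SE; edgeR adjusted p = 0.00327). Cre04.g222950 averaged 3.29 ± 0.293 CPM at 0.5 nM against 2.02 ± 0.431 CPM in the controls and rose too (edgeR adjusted p = 0.00601). Cre04.g223050 averaged 3.67 ± 0.932 CPM at 0.5 nM against 5.29 ± 0.432 CPM in the controls and fell by 0.51 on the log2 scale (edgeR adjusted p = 0.0403), a call lost with library totals alone (adjusted p = 0.421) and, among the libraries left out in turn, without control replicate 2 or 3, 0.5 nM replicate 1 or 3, or 0.05 nM replicate 3. Cre04.g222850, next to Cre04.g222800, averaged 10.2 ± 0.304 CPM at 0.5 nM against 12.5 ± 1.89 CPM in the controls and did not pass (edgeR adjusted p = 0.0561), although it passed as lower with the replicate block (adjusted p = 0.0219), with DESeq2 (0.0419) and without control replicate 3 (0.0248).

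**Figure D4:**
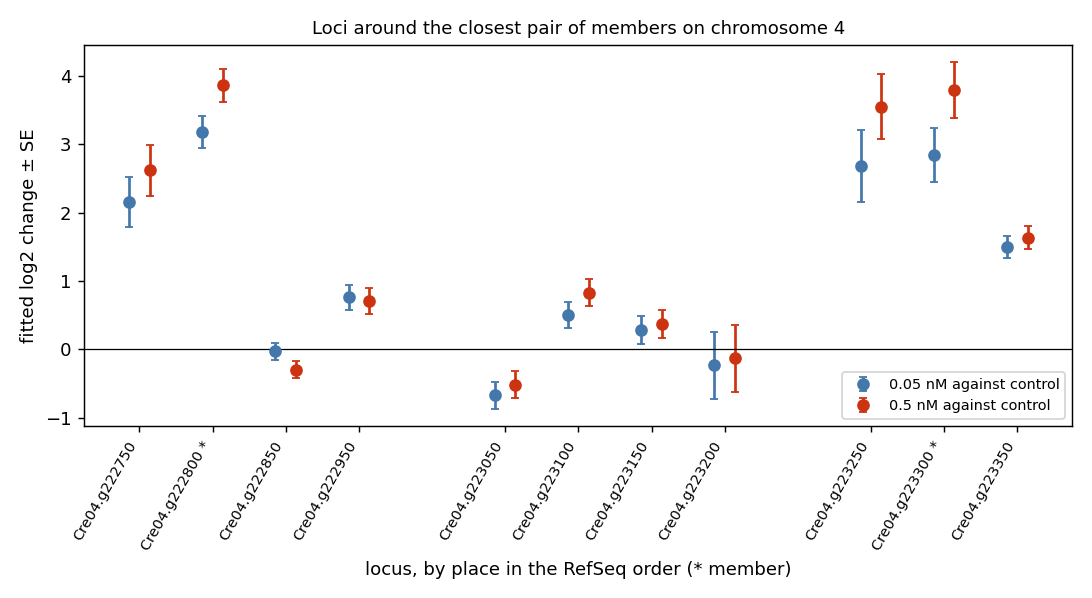
Fitted log2 change against control, with its standard error (bars), of the 11 loci with values among 13 neighbouring places of chromosome 4, in RefSeq order. Blue is 0.05 nM and red 0.5 nM, and asterisks mark the 2 members. Both members and their outer neighbours lie above 1, while loci between them run from -0.67 to 3.55.

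The members took 0.0132% to 0.0162% of assigned reads in the controls, 0.0458% to 0.0604% at 0.05 nM and 0.0844% to 0.121% at 0.5 nM. In the authors' deposited table the ratio of 0.5 nM to control for the 51 loci ran from 1.98 to 58.3 with a median of 2.79, and that of 0.05 nM to control ran from 1.29 to 15.1 with a median of 1.69. The table lists for Cre03.g162800 the highest of these, 58.3 and 15.1.

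Depth was 15138888 to 20433375 assigned reads per library. Multiply placed alignments, left unassigned by the counting, came, relative to assigned reads, to 24.2% to 43.7% in the controls, 19.0% to 21.6% at 0.05 nM and 20.8% to 23.0% at 0.5 nM, so loci with near-identical copies are uncertain. Control replicate 3 alone had 43.7%, and the other 2 controls had 24.2% and 27.0%. The labels of the 0.05 nM samples describe the source in other words and alone name an Illumina HiSeq sequencer, so dose and any separate handling of these libraries cannot be told apart. The sources used here do not give the strand setting, so reads of overlapping loci on opposite strands may not be separated.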

How the data were processed

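Libraries were made with the Illumina TruSeq Stranded mRNA kit from TRI Reagent RNA, per the labels' protocols. The submitters' processing notes name TopHat2, an aligner, and HTSeq, a read counter. The sources used here give no versions, build, annotation or strand setting. The authors deposited raw counts per locus for each library. A deposited table of the series adds signed fold ratios against control, a score the authors computed, and 30 of its columns were not used. HTSeq's categories of unassigned reads (no feature, 1.02% to 1.24% of the sum of assigned, ambiguous and no-feature reads, and ambiguous, 0.264% to 0.331%) stayed out of library sizes and tests.

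CPM used TMM factors over all loci (edgeR 4.0.16, limma 3.58.1, R 4.3.3). The 9 libraries were fitted together by edgeR's quasi-likelihood method with group as the only term, after filterByExpr, with two-sided tests and adjustment over 14778 loci. The script was tested on simulated data in which only loci with control means of at least 2 CPM rose, by a ratio of 2 at each step. All simulated loci were given the same spread. That test does not cover the 40 members below this level. The members at or above it had second ratios smaller than the simulated one, so the test does not cover these either. Nothing in the labels says that replicates were separate cultures, so p-values measure the spread between these samples. DESeq2 1.42.0, library totals, other minimum ratios, a replicate block and leaving out each library were alternatives.

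Same-numbered libraries deviated together, with r of 0.103 to 0.627 over loci in all 9 pairs. Pairs of different numbers had r of -0.490 to 0.368, and control replicate 3 correlated more with replicate 2 of each dose (0.335 at 0.5 nM and 0.368 at 0.05 nM) than with replicate 3, and the labels do not say what a number marks. The members and the lists were chosen with earlier results of these data known. Loci were named by rule: the 10 with the highest ratio of 0.5 nM to control, the 10 with the highest mean at 0.5 nM, the 5 with the highest ratio between the doses, and the 2 on each side of each minimum ratio. Cre08.g370150, Cre12.g489350 and the stretch on chromosome 4 were added after their values were seen. The RefSeq table (assembly v5.5) matched 11713 of 17737 identifiers and gave neighbours and chromosomes only. Planned descriptions by product name, promoter motif and protein sequence were not run, since no table used here holds these.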

Additional observations from a re-analysis of the deposited data

How the results depend on the processing

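The number of loci meeting the conditions depended on the settings. It was 96 with library totals alone, 25 with a control mean of at least 1 CPM, 230 with a second ratio above 1.3, 1 with a second ratio above 2, and 81 when both doses lacked replicate 3, a setting chosen after seeing the data that kept 31 of the 51. With DESeq2's size factors it was 50, 48 of them shared, and with a first ratio of at least 1.5 it was 41. Leaving out 1 library gave 54 to 134 loci. A condition over all libraries of a dose is easier to meet with fewer of them.

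Loci called higher at 0.5 nM against 0.05 nM numbered 2, and 287 with the replicate block, 47 with DESeq2, 3 without a low-count filter, 0 with library totals alone (edgeR, 1530 loci at an unadjusted p under 0.05), and 0 to 20 with 1 library left out. Those lower numbered 121, and 1041 with the block, 605 with DESeq2 and 0 with library totals. The cause was not tested. The counts of higher loci against control stayed within 1.5 times, with 3239 to 4074 loci higher at 0.05 nM and 4163 to 4704 at 0.5 nM when 1 library was left out. The block gave 5427 higher at 0.5 nM and 4900 at 0.05 nM. Library totals, for these counts of loci a setting chosen after seeing the data, gave 6707 and 5905 higher, and 2557 and 2080 lower. With them the median locus shifted by 0.36 at 0.5 nM and 0.30 at 0.05 nM, against 0.07 and 0.05 with TMM.

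The members' median log2 change against control was 1.49 at 0.5 nM and 0.76 at 0.05 nM. It was 1.78 and 1.03 with library totals, and with 1 library left out it ran from 1.46 to 1.62 and from 0.74 to 0.88. For the named loci 0 of 912 log2 changes under an alternative reversed. The members and near-threshold loci were chosen by their ratios in these same libraries. A reversal was thus unlikely, and nothing is read from the 0. The members and near-threshold loci were judged by size of shift alone, and 17 of their log2 changes moved by more than the spread between replicates. Calls were followed only for loci around Cre04.g222800 and Cre04.g223300, at 0.5 nM against control. Among these, 6 calls were lost, all in Cre04.g223050, and 3 were gained, all in Cre04.g222850. These loci make up a small part of the 912, so 912 is not the base for lost or gained calls. The calls of Cre17.g708750 and Cre12.g544450 between the doses were lost with library totals and wherever leaving out a library gave 0.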
